A study of Mus musculus with 6 samples.

Results

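Homeobox genes encode transcription factors that bind DNA through a homeodomain, and they are best known for fixing position and cell identity in the embryo. The genes examined were chosen by their annotation and their level: rows of the deposited table whose transcription factor family is given as Homeobox and whose mean over all 6 libraries was at least 1 FPKM (fragments scaled to gene length and library size). This selected 39 of 226 homeobox rows, in a table of 33682 rows. Only 3 of the 39 belong to the Hox clusters (Hoxb2, Hoxb3 and Hoxd8), and the other 36 lie elsewhere in the genome. The rule therefore used the level and not the difference between the groups, but it was set with earlier results of these data known.

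Hox genes stand in 4 clusters, A to D, in which the order along the chromosome follows the order of use along the body axis. The homeobox genes outside the clusters fall into classes by the kind of homeodomain: the TALE class, with Pbx, Meis and Pknox as DNA-binding partners of Hox proteins and Tgif as repressors of SMAD-driven transcription; the PRD class, with the mesenchymal factors Prrx1 and Prrx2; the NK-like, SINE and LIM classes of organ-building factors; and the Meox pair, which is related to Hox but not in a cluster. In connective tissue cells several of these genes remain active after birth, and Prrx1 and Meox1 are known from mouse work as regulators of fibroblast state.

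The libraries were made from primary neonatal rat heart cells kept in the supernatant of bone marrow-derived mast cells treated with the cytokine TNF-alpha. The mast cells were ALOX5-/- for 3 libraries (Alox5KO medium) and wild type for the other 3 (WT medium), and the sequenced cultures themselves are labelled WT in both groups. ALOX5 encodes the first enzyme of leukotriene synthesis, and the comparison asks what its loss in mast cells changes in the heart cells that receive their medium. The labels give the cells as cardiomyocytes and the organism as mouse, the design text gives fibroblasts, and 32883 of the 33682 row identifiers are rat Ensembl genes and 0 mouse. No label says that the replicates are separate cultures, so p-values measure the spread between these libraries, which may be technical. Heart cells without mast cell medium, and medium of mast cells not given TNF-alpha, were not analysed here.

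Between 13284088 and 15766187 reads per library were recovered from the values. The 12 fibroblast markers, among them Col1a1, Pdgfra and Tcf21, all exceeded a mean of 1 FPKM, and their summed level ran from 11080 to 12814 FPKM with Alox5KO medium and from 10788 to 11321 FPKM with WT medium. The median level of the 12 was lower with Alox5KO medium, at 88.3 to 141 FPKM, against 218 to 501 FPKM with WT medium. The genes did not move together. At an adjusted p under 0.05, limma called 4 higher with Alox5KO medium (Vim, Col3a1, Pdgfrb and Tcf21) and 3 lower (Dcn, Lum and Pdgfra). That is 58.3% called, beside 20.7% of all genes tested, and the median log2 fold change of the 12 was 0.33. Among 12 cardiomyocyte markers, a mean of 1 FPKM was reached by 6, Myl2 was at 0 in all libraries, and the sum ran from 100.5 to 125 FPKM with Alox5KO medium against 29.8 to 54.4 FPKM with WT medium, most of it Tnnt2. The levels of both lists thus went against the cardiomyocyte label. Summed levels of other marker lists also lay apart between the groups. The 9 smooth muscle and pericyte genes summed to 4883 to 6701 FPKM with Alox5KO medium and 1023 to 1111 FPKM with WT medium. None was at 0 throughout, and most of the sum was Acta2 and Tagln. Kcnj8 of that list went the other way, averaging 3.39 FPKM with Alox5KO medium and 14.8 FPKM with WT medium, as did Rgs5 near 0. The 6 epicardial and mesothelial genes summed to 26.0 to 31.6 FPKM with Alox5KO medium and 88.8 to 123 FPKM with WT medium. Most of this gap was Aldh1a2, averaging 7.62 FPKM with Alox5KO medium and 79.2 FPKM with WT medium. Wt1 averaged 17.2 and 18.2 FPKM in the same order. Upk1b, Upk3b and Krt19, near or below 1 FPKM, averaged higher with Alox5KO medium. The 7 mast cell markers summed to 22.3 to 32.3 FPKM with Alox5KO medium and 43.4 to 61.4 FPKM with WT medium. Fcer1a, Mcpt4 and Tpsb2 among them were at 0 throughout. Most of the mast cell gap was Cpa3, averaging 19.6 FPKM with Alox5KO medium and 45.4 FPKM with WT medium. Cma1 averaged 6.35 and 6.40 FPKM in the same order. Kit and Hdc, near or below 1 FPKM, averaged higher with Alox5KO medium. The 6 endothelial genes (Emcn at 0) summed to at most 3.67 FPKM with Alox5KO medium and 6.54 FPKM with WT medium, the 5 leukocyte genes (Cd3e at 0) to at most 2.47 FPKM with Alox5KO medium and 4.11 FPKM with WT medium, and the 4 Schwann cell genes to at most 1.23 FPKM with Alox5KO medium and 1.04 FPKM with WT medium. In bulk libraries, fewer cells of a type and less RNA per cell cannot be told apart, and the part of these marker differences in the results on homeobox genes was not tested. WT-medium replicate 3 and Alox5KO-medium replicate 2 stood apart on the second principal component (11.7% of the variance), at scores of 25.0 and -17.0.

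The Hox clusters were nearly silent in the table. Of 54 Hox rows, 16 had a read in any library, and all Hox rows together held 324 reads with Alox5KO medium and 274 with WT medium. The HoxB cluster on chromosome 10 carried 236 of these reads with Alox5KO medium and 215 with WT medium, and the HoxD cluster on chromosome 3 carried 80 with Alox5KO medium and 55 with WT medium. Within HoxB the reads came from neighbouring genes of low number: Hoxb2, Hoxb3 and Hoxb4 had mean levels of 1.33, 1.19 and 0.589 FPKM over the 6 libraries, Hoxb1 was at 0, and Hoxb5, the gene after Hoxb4, had 1 read in all. Within HoxD a single gene stood out, Hoxd8 at 1.26 FPKM, with its neighbours Hoxd9 at 0.123 FPKM and Hoxd4 at 0.0588 FPKM. The HoxC cluster on chromosome 7 held 7 reads with Alox5KO medium and 1 with WT medium, from Hoxc4 and Hoxc6.

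**Figure D1:**
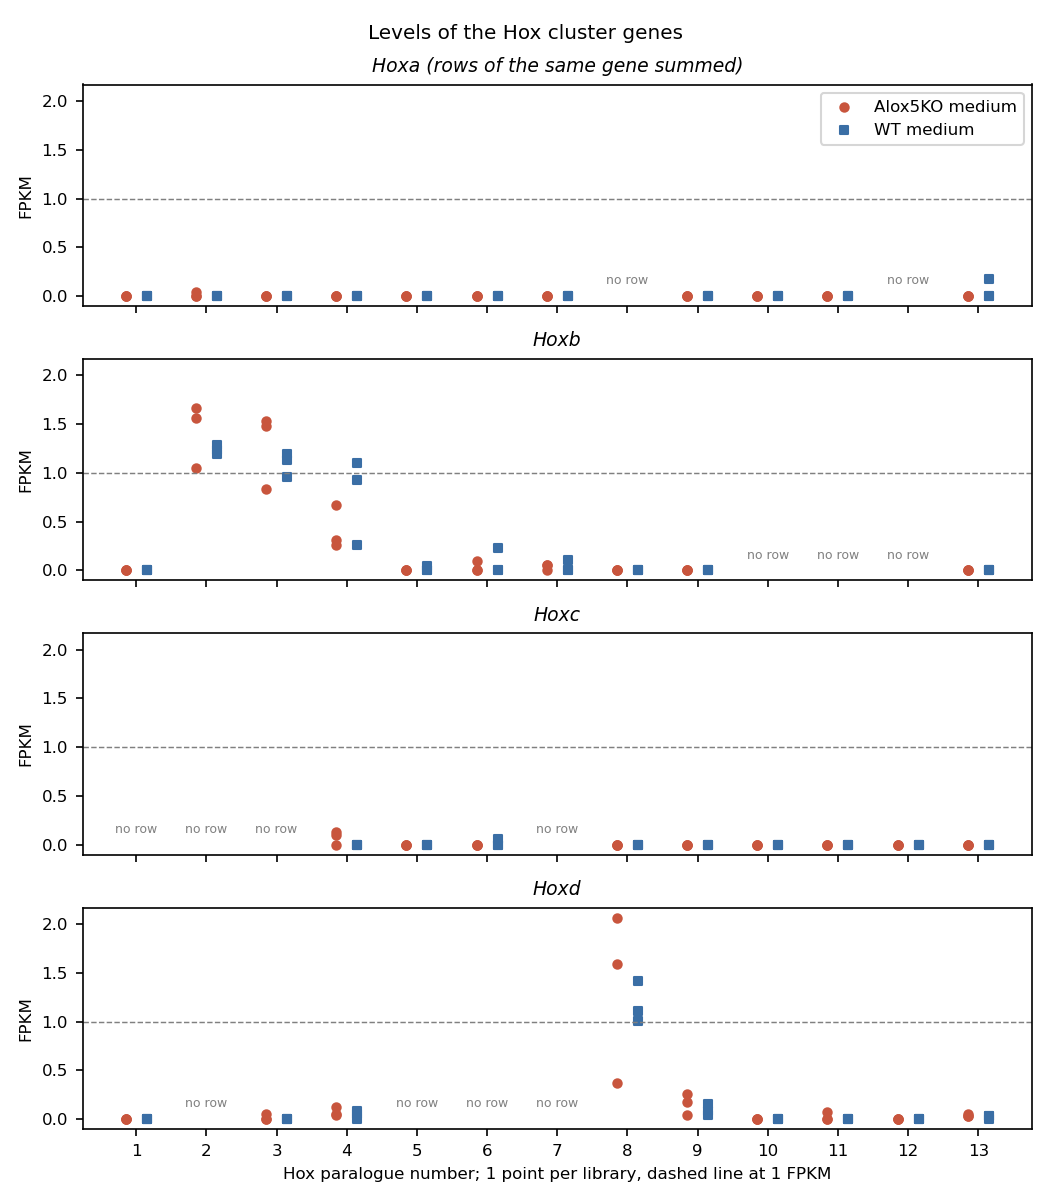
FPKM of each Hox gene (vertical axis) by paralogue number (horizontal axis) in the A, B, C and D clusters, with 1 point per library, circles for Alox5KO medium and squares for WT medium. Only Hoxb2, Hoxb3 and Hoxd8 average above the dashed line at 1 FPKM, with Hoxb4 below it at 0.589 FPKM, and the points of both media overlap for these genes.

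The A cluster cannot be read in the same way. Its 11 genes appear in 26 rows, 11 of them on an unplaced scaffold and the rest on chromosome 4, and every one of the 26 rows has at least 1 other row for the same gene. Those rows held 1 read with Alox5KO medium and 3 reads with WT medium, from Hoxa2 and Hoxa13. No source used here says how reads matching more than 1 place were treated, so the zeros of the A cluster do not show that its genes were off; whether reads were lost between the copies was not tested. A further 15 rows lie within the spans of the clusters, among them microRNA genes, and all 15 were at 0 in every library.

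No difference between the media was called for the Hox genes. Hoxb2, a hindbrain patterning factor placed by the table at 84200880 to 84202688 of chromosome 10 (genome build not stated), had 1.05, 1.56 and 1.67 FPKM with Alox5KO medium and 1.20, 1.28 and 1.23 FPKM with WT medium. The range with Alox5KO medium spanned that with WT medium. Its neighbour Hoxb3 (84182118 to 84195796) had 1.48, 1.53 and 0.834 FPKM with Alox5KO medium and 1.20, 0.960 and 1.13 FPKM with WT medium, again overlapping. Hoxd8 (chromosome 3, 61627383 to 61628628), a trunk patterning gene, had 1.59, 0.371 and 2.07 FPKM with Alox5KO medium and 1.11, 1.01 and 1.42 FPKM with WT medium. The 0.371 FPKM of Alox5KO-medium replicate 2 rests on 5 reads, against 20 and 26 in the other Alox5KO-medium libraries. The log2 fold changes were 0.108 for Hoxb2, 0.108 for Hoxb3 and 0.0292 for Hoxd8, with 95% confidence intervals of -0.27 to 0.49, -0.31 to 0.53 and -0.62 to 0.68. Of the 3 genes 0 passed limma at a Benjamini-Hochberg adjusted p of 0.05, 0 had an unadjusted p under 0.05, and limma voom on recovered reads also called 0. The sign of Hoxd8 turned with a smaller pseudocount and with limma voom (-0.08 and -0.14). A change of 2-fold on the log2(FPKM + 1) scale lay outside all 3 intervals. This scale compresses changes of genes near 1 FPKM, so a 2-fold change of the FPKM itself is smaller on it. For Hoxd8 the interval does not exclude a 2-fold change of the FPKM.

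Among the 36 homeobox genes outside the clusters levels spanned more than 2 orders of magnitude. Prrx1 was the most abundant by a wide margin: its mean of 177 FPKM exceeded 96.2% of the 12341 genes averaging 1 FPKM or more and made up 34.6% of the summed level of all 39 genes. Other abundant genes were Tgif1 at 52.9 FPKM, Cers5 at 44.9 FPKM, Meis1 at 30.2 FPKM, Prrx2 at 22.2 FPKM, Adnp at 19.3 FPKM, Pbx3 at 15.0 FPKM, Pbx2 at 14.7 FPKM and Zhx1 at 11.3 FPKM. Cers5 is a ceramide synthase, an enzyme of sphingolipid synthesis that carries a homeobox-like domain and is not a patterning factor. The median of the 39 genes was 4.62 FPKM, against 10.6 FPKM for all genes averaging 1 FPKM or more, and 9 of the 39 lay below 2 FPKM. All 39 had reads in every library. Just inside the limit of 1 FPKM stood Hoxb3, Irx5 and Zfhx3 at 1.19, 1.20 and 1.22 FPKM, and just outside it Irx2, Gbx2 and Hhex at 0.922, 0.763 and 0.681 FPKM.

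**Figure D2:**
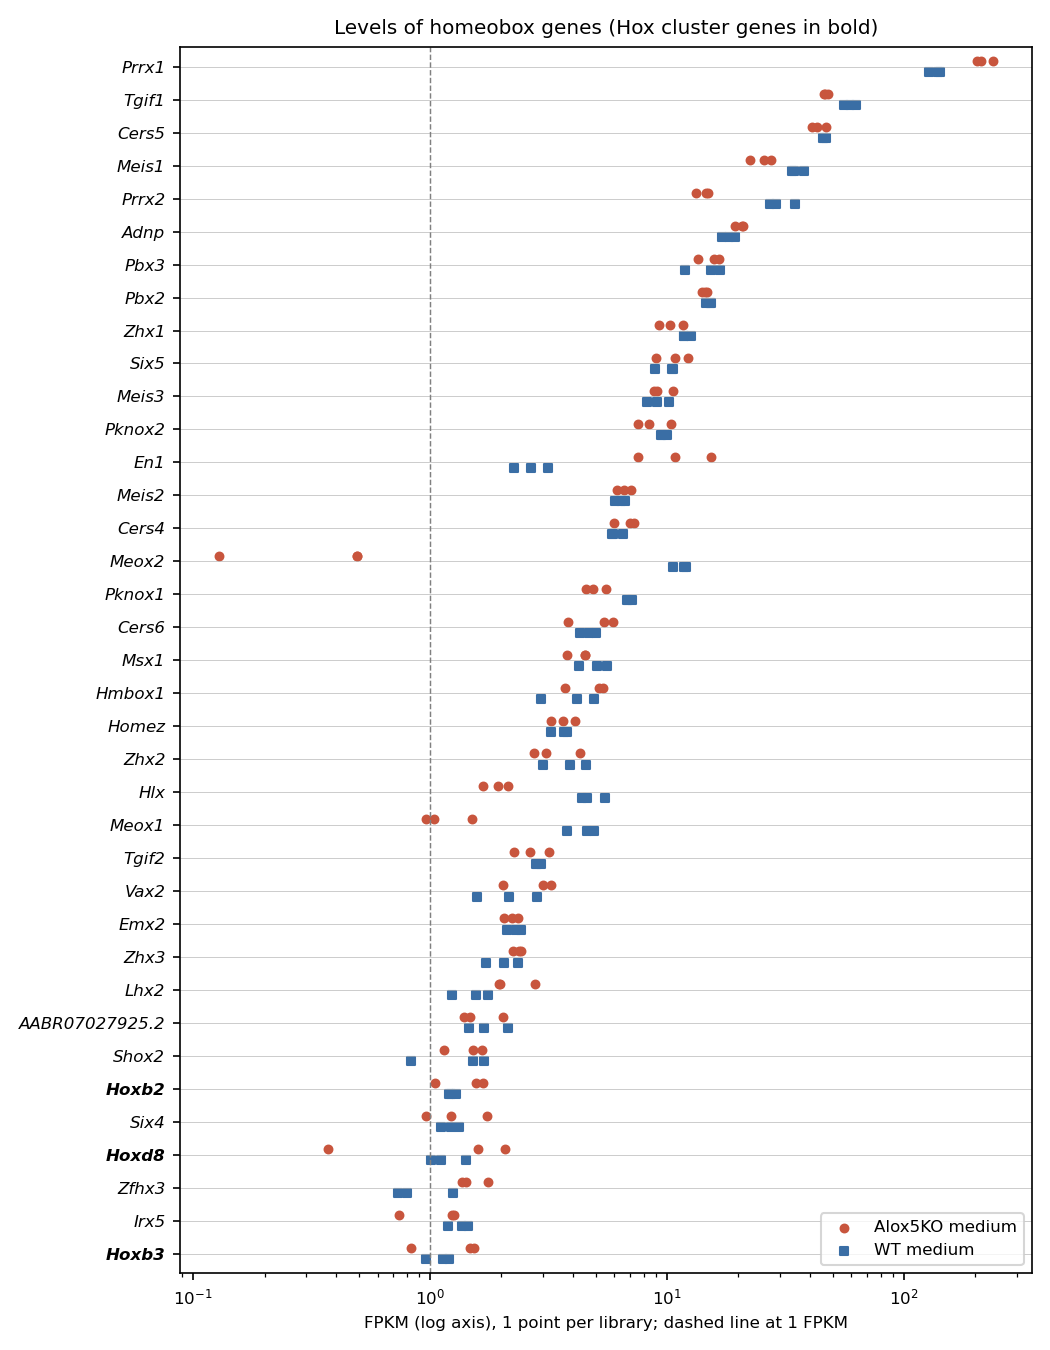
FPKM of the homeobox genes reported here on a log axis, in order of their mean, with 1 point per library (circles, Alox5KO medium; squares, WT medium) and Hox cluster genes in bold. Prrx1 lies highest at 203 to 238 FPKM with Alox5KO medium and 128 to 143 FPKM with WT medium, and Meox2 shows the widest gap between the media.

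The share of homeobox rows that reached 1 FPKM, 17.3%, was below that of bHLH factors (48.5% of 101 rows), Fork head factors (34.9% of 43), T-box factors (29.4% of 17) and all protein-coding rows (50.1% of 22250). These shares are a description of the table, to which the unread A cluster adds 26 rows. Of the 187 homeobox rows below the limit, 111 were at 0 in all 6 libraries. The cardiac homeobox gene Nkx2-5, a defining factor of cardiomyocytes, was among the low rows, at 0.490, 1.01 and 0.541 FPKM with Alox5KO medium and 0.687, 0.679 and 0.257 FPKM with WT medium.

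In the comparison of the media, limma called 4 of the 36 homeobox genes outside the clusters higher and 7 lower with Alox5KO medium, at a Benjamini-Hochberg adjusted p of 0.05 over all 12341 genes tested. Those that rose included En1 and Prrx1, and those that fell were Meox2, Meox1, Prrx2, Hlx, Meis1, Pknox1 and Tgif1. Over all genes tested 20.7% were called, 10% higher and 10.6% lower, and for the 39 homeobox genes the share was 28.2%. Without WT-medium replicate 1 the calls over all genes numbered 1653, against 2551 with all libraries, and the 36 genes gave 3 higher and 5 lower. The median log2 fold change of the 39 was 0.05, beside -0.00082 for all tested genes. The libraries of the media did not overlap for 13 of the 39 genes, beside 37.6% of all genes tested.

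**Figure D3:**
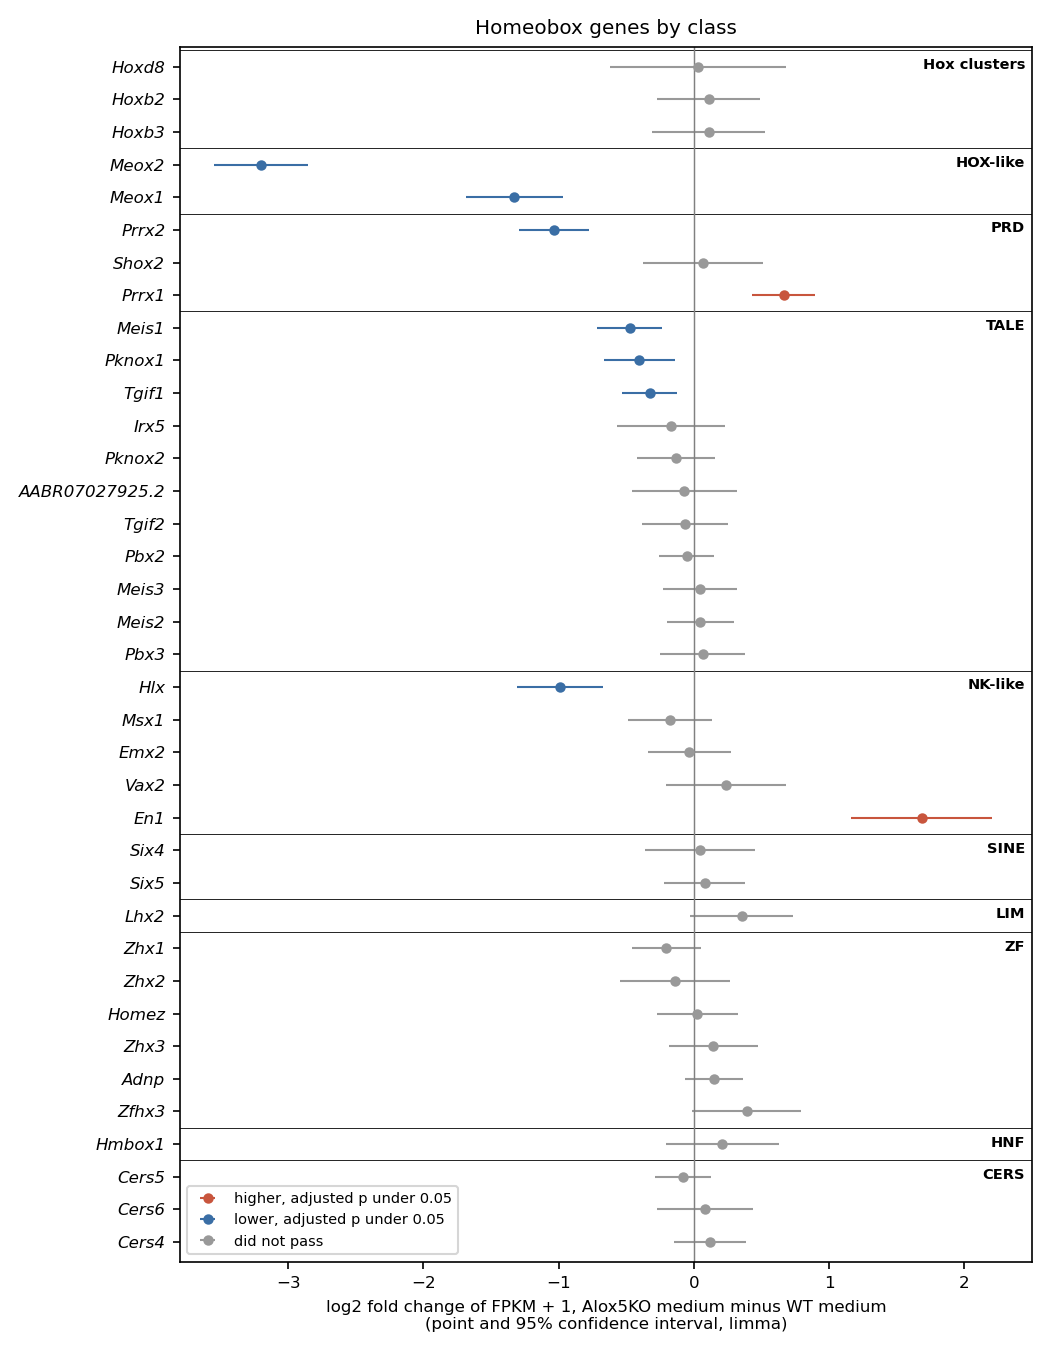
Log2 fold change of FPKM + 1, Alox5KO medium minus WT medium, for each homeobox gene reported here (point, with its 95% confidence interval from limma), grouped by homeodomain class. Red marks genes called higher, blue the 7 called lower and grey the 28 that did not pass, and the Meox, Prrx and Meis families hold members that lie apart from each other.

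Both Meox genes, the mesenchyme homeobox factors of somites and their derivatives, fell with Alox5KO medium. Meox2 (chromosome 6, 56625650 to 56689238), known as a growth-restraining factor in vascular cells, had 0.493, 0.128 and 0.494 FPKM with Alox5KO medium and 11.8, 10.6 and 12.1 FPKM with WT medium. Every library with WT medium lay far above every library with Alox5KO medium, with 41 reads in all with Alox5KO medium and 1157 with WT medium. The group means of 0.371 ± 0.211 FPKM with Alox5KO medium and 11.5 ± 0.785 FPKM with WT medium (SD, n = 3 each) differed 31.0-fold. The log2 fold change was -3.20 (SE 0.15, adjusted p = 2.5e-06 in limma after Benjamini-Hochberg adjustment), and -4.75 with a pseudocount of 0.1. Meox2 passed the limit of 1 FPKM only through its level with WT medium, so its separation and its call are no independent support.

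Meox1 (chromosome 10, 89797038 to 89816491), a factor that drives fibroblast activation in stressed mouse hearts, was a low gene in both media. It had 0.965, 1.04 and 1.50 FPKM with Alox5KO medium and 3.78, 4.91 and 4.62 FPKM with WT medium, with no overlap. Its log2 fold change was -1.33 (SE 0.16, adjusted p = 4.6e-04 in limma after Benjamini-Hochberg adjustment), or -1.85 with a pseudocount of 0.1. With WT medium Meox2 supplied 72.2 ± 3.72% of the summed Meox FPKM, and with Alox5KO medium the larger share was that of Meox1, at 76.8 ± 11.5% against 27.8 ± 3.72% with WT medium (SD, n = 3 each). The sum itself was 1.54 ± 0.422 FPKM with Alox5KO medium and 15.9 ± 0.649 FPKM with WT medium (SD, n = 3 each).

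The paired-related genes Prrx1 and Prrx2, mesenchymal factors of limb, face and heart that overlap in function in mouse embryos, moved in opposite directions. Prrx1 (chromosome 13, 81147348 to 81214546) had 238, 203 and 211 FPKM with Alox5KO medium and 143, 128 and 140 FPKM with WT medium. The lowest library with Alox5KO medium was above the highest with WT medium, and the log2 fold change was 0.66 (SE 0.10, adjusted p = 0.0019 in limma after Benjamini-Hochberg adjustment). Prrx2 (chromosome 3, 9681871 to 9718051) had 14.6, 14.8 and 13.2 FPKM with Alox5KO medium and 34.8, 28.8 and 27.2 FPKM with WT medium. Its log2 fold change was -1.04 (SE 0.11, adjusted p = 2.9e-04 in limma after Benjamini-Hochberg adjustment). Every library with Alox5KO medium lay below every library with WT medium. Prrx2 supplied 6.16 ± 0.579% of the summed Prrx FPKM with Alox5KO medium, against 18.1 ± 1.67% with WT medium (SD, n = 3 each). The third expressed gene of the PRD class, Shox2, a factor of the cardiac pacemaker region, stayed near 1 FPKM in both media (log2 fold change 0.07, 95% confidence interval -0.38 to 0.51).

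The TALE class held 12 of the 39 genes, of which Meis1, Pknox1 and Tgif1 fell. Its Pbx, Meis and Pknox members are the partners with which Hox proteins bind DNA, and 8 of 9 such cofactor genes reached 1 FPKM, Pbx4 being the exception. Pbx2 had 14.4, 14.8 and 14.1 FPKM with Alox5KO medium and 15.3, 14.6 and 15.1 FPKM with WT medium, overlapping groups with a confidence interval of the log2 difference from -0.26 to 0.15. Pbx3 had 15.7, 16.6 and 13.6 FPKM with Alox5KO medium and 15.4, 16.7 and 11.9 FPKM with WT medium, with an interval from -0.25 to 0.38. Pbx3 overlaps Mapkap1 on the other strand in the table, and without the strand of the reads their counts are uncertain.

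Meis1, a factor that limits cardiomyocyte division in newborn mice, was the most abundant of the Meis genes and fell. Meis1 (chromosome 14, 103181281 to 103321270) had 27.4, 22.3 and 25.7 FPKM with Alox5KO medium and 33.7, 34.3 and 37.8 FPKM with WT medium. The groups did not overlap, and the log2 fold change was -0.47 (SE 0.11, adjusted p = 0.012 in limma after Benjamini-Hochberg adjustment). Meis2 and Meis3 lay within their replicate spread, at 6.59 ± 0.428 and 9.50 ± 0.995 FPKM with Alox5KO medium and 6.35 ± 0.302 and 9.18 ± 0.987 FPKM with WT medium (SD, n = 3 each). Of the Pknox pair, relatives of Meis that also bind Pbx, Pknox1 (chromosome 20, 10334308 to 10358922) had 4.55, 4.87 and 5.52 FPKM with Alox5KO medium and 6.83, 7.09 and 6.76 FPKM with WT medium. It fell by 0.40 on the log2 scale (SE 0.11, adjusted p = 0.037 in limma after Benjamini-Hochberg adjustment), a call lost without Alox5KO-medium replicate 1 or 2 or any single WT-medium replicate, and with TPM scaling, where the adjusted p reached 0.088. Pknox2 had 8.78 ± 1.48 FPKM with Alox5KO medium and 9.66 ± 0.328 FPKM with WT medium (SD, n = 3 each), a difference that did not pass.

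Tgif1, a corepressor that binds SMAD proteins and damps TGF-beta signalling, was the second most abundant of the 39 genes. Tgif1 (chromosome 9, 119181083 to 119190698) had 48.0, 46.2 and 46.3 FPKM with Alox5KO medium and 62.5, 59.0 and 55.7 FPKM with WT medium. The groups were separate but the change was small, a log2 fold change of -0.33 (SE 0.09, adjusted p = 0.030 in limma after Benjamini-Hochberg adjustment). The call was lost without any single Alox5KO-medium replicate and without WT-medium replicate 1 or 2, with adjusted p between 0.055 and 0.15 (limma, Benjamini-Hochberg). Its relative Tgif2 had 2.70 ± 0.466 FPKM with Alox5KO medium and 2.85 ± 0.0723 FPKM with WT medium (SD, n = 3 each). The row AABR07027925.2, which the table describes only by similarity to mouse TGIF2, had 1.63 ± 0.354 FPKM with Alox5KO medium and 1.76 ± 0.343 FPKM with WT medium (SD, n = 3 each). Reads of these near copies may have been split, so both values are uncertain. Irx5, an Iroquois factor, had 1.08 ± 0.293 FPKM with Alox5KO medium and 1.33 ± 0.132 FPKM with WT medium (SD, n = 3 each).

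**Figure D4:**
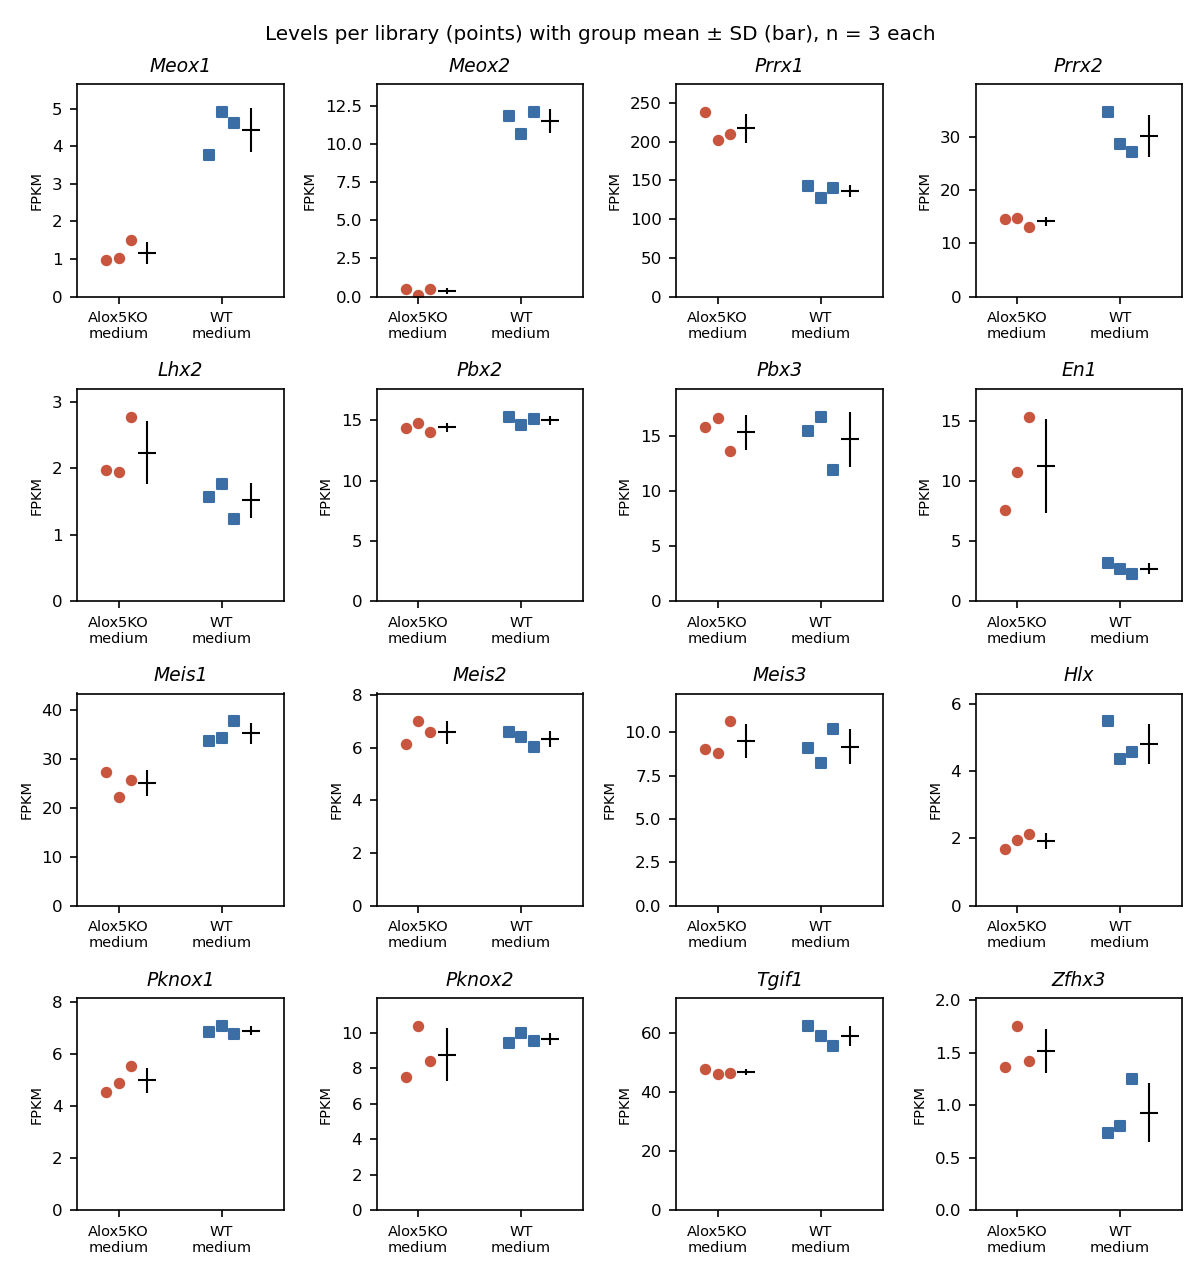
FPKM of 16 homeobox genes by library (points) with the group mean and SD (black bars, n = 3 each), Alox5KO medium left and WT medium right in each panel, with axes that start at 0. Prrx1, En1, Lhx2 and Zfhx3 lie higher with Alox5KO medium without overlap, of which Lhx2 and Zfhx3 did not pass the test, and Meox1, Meox2, Prrx2, Meis1, Hlx, Pknox1 and Tgif1 lie lower without overlap.

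Of the 5 NK-like genes En1 rose and Hlx fell. En1 (chromosome 13, 36532758 to 36537093), the engrailed factor that marks a lineage of scar-forming fibroblasts in mouse back skin, had 7.54, 10.8 and 15.3 FPKM with Alox5KO medium and 3.15, 2.67 and 2.25 FPKM with WT medium. All libraries with Alox5KO medium lay above all with WT medium, and the spread among them was wide. The log2 fold change was 1.68 (SE 0.23, adjusted p = 0.0013 in limma after Benjamini-Hochberg adjustment), the largest rise of the 39 genes, from 624 reads with Alox5KO medium and 134 with WT medium. Hlx (chromosome 13, 102637769 to 102643223), a factor needed in gut and liver mesenchyme in mice, had 1.68, 1.94 and 2.14 FPKM with Alox5KO medium and 5.49, 4.36 and 4.58 FPKM with WT medium. It fell by 0.99 on the log2 scale (SE 0.14, adjusted p = 0.0011 in limma after Benjamini-Hochberg adjustment). The BMP-responsive factor Msx1 had 4.27 ± 0.427 FPKM with Alox5KO medium and 4.97 ± 0.683 FPKM with WT medium (SD, n = 3 each). Msx1, the eye factor Vax2 and the forebrain and kidney factor Emx2 did not pass, with log2 fold changes of -0.18, 0.24 and -0.03.

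The SINE class, named after a fly eye gene and active in muscle and organ precursors, included Six4 and Six5. Six4 had 1.31 ± 0.391 FPKM with Alox5KO medium and 1.22 ± 0.107 FPKM with WT medium (SD, n = 3 each), and its log2 fold change of 0.05 missed the threshold. Six5, which neighbours the myotonic dystrophy kinase gene in humans, had 10.7 ± 1.63 FPKM with Alox5KO medium and 9.99 ± 0.950 FPKM with WT medium (SD, n = 3 each).

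The remaining homeobox genes, the zinc finger group with Adnp, Zhx1, Zhx2, Zhx3, Homez and Zfhx3, the LIM gene Lhx2, the telomere-binding Hmbox1 and the ceramide synthases Cers4, Cers5 and Cers6, gave no call. Limma called 0 of these 11 genes, 0 had an unadjusted p under 0.05, and limma voom on recovered reads called 1, Zfhx3. That gene, a very long transcription factor with many zinc fingers, had 1.37, 1.76 and 1.42 FPKM with Alox5KO medium and 0.730, 0.801 and 1.25 FPKM with WT medium. The groups were separate, with a log2 fold change of 0.39 (adjusted p = 0.17, limma with Benjamini-Hochberg), and 0.74 with an adjusted p of 0.024 by limma voom. Its mean was 1.51 FPKM with Alox5KO medium and 0.926 FPKM with WT medium, so it met the limit of 1 FPKM only through its level with Alox5KO medium, and its separation and the voom call are no independent support. Lhx2, a factor that keeps liver stellate cells quiescent in mice, had 1.97, 1.95 and 2.78 FPKM with Alox5KO medium and 1.57, 1.76 and 1.24 FPKM with WT medium, separate groups whose difference did not pass (adjusted p = 0.19, limma with Benjamini-Hochberg). Adnp, a chromatin factor, had 20.9, 20.7 and 19.3 FPKM with Alox5KO medium and 17.0, 18.2 and 19.4 FPKM with WT medium, and the groups overlapped. Cers5 had 41.0, 42.9 and 47.1 FPKM with Alox5KO medium and 45.3, 46.9 and 45.9 FPKM with WT medium, and the groups overlapped. Zhx1, a transcriptional repressor, had 11.7, 10.3 and 9.23 FPKM with Alox5KO medium and 11.8, 12.7 and 11.8 FPKM with WT medium. Its groups were narrowly separate, and the difference did not pass (adjusted p = 0.25, limma with Benjamini-Hochberg). The Zhx1 gene overlaps the gene RGD1310852 on the same strand. Over the 28 genes of all classes that did not pass, log2 fold changes ran from -0.20 to 0.39, and for 19 of them the 95% confidence interval lay within 0.5 of 0.

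By position, chromosome 3 held 9 of the 39 genes, of which Prrx2 alone was called, and Hoxb2 and Hoxb3 lie 5.08 kilobases apart. These positions were noticed after the calls were known and are given as a description.

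Homeobox rows below the limit of 1 FPKM were examined in a fit with no filter on low values, in which 12.1% of 19519 genes were called. Of the 76 rows with any reads 4 fell and 0 rose, and these 4 were named after their values were seen. Lhx8, a LIM factor of forebrain and teeth, had 6 reads with Alox5KO medium and 67 with WT medium, or 0.0735 and 0.916 FPKM on average (adjusted p = 0.010, limma with Benjamini-Hochberg). En2, the paralogue of En1, had 31 reads with Alox5KO medium and 103 with WT medium, or 0.249 and 0.907 FPKM (adjusted p = 0.042, limma with Benjamini-Hochberg). Thus En2 was lower in the medium in which En1 was higher. Lmx1a was at 0 in all libraries with Alox5KO medium and had 30 reads with WT medium, and Hmx2 had 6 reads with Alox5KO medium and 16 with WT medium (limma, Benjamini-Hochberg adjusted p = 0.014 and 0.046). At a length of 1 kilobase, 3 reads correspond to 0.185 to 0.228 FPKM in these libraries, so Lmx1a and Hmx2 lie near what these libraries can detect.

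Several homeobox genes are filed under other families in the table, and a list of 35 genes of such classes was examined beside the 39. Its members at 1 FPKM or more numbered 20, of which 10 carry no Homeobox label. The rest are among the 39 and gave no call. Limma called 1 of the 20 higher and 2 lower, or 15.0%, beside 20.7% of all genes tested. All of these calls fell among the 10 without the label, so the share among those 10 was larger than 15.0%. Hopx, a small homeodomain protein that cannot bind DNA and modulates SRF in the heart, had 20.1, 19.3 and 17.7 FPKM with Alox5KO medium and 37.6, 38.6 and 33.0 FPKM with WT medium. It fell without overlap, with a log2 fold change of -0.90 and a standard error of 0.10 (adjusted p = 3.2e-04, limma with Benjamini-Hochberg). Zeb1, a zinc finger homeobox repressor of epithelial genes, had 10.6, 13.3 and 8.26 FPKM with Alox5KO medium and 5.94, 5.95 and 6.55 FPKM with WT medium, a rise of 0.69 on the log2 scale (adjusted p = 0.014, limma with Benjamini-Hochberg). Its relative Zeb2 had 25.7 ± 3.97 FPKM with Alox5KO medium and 29.8 ± 2.82 FPKM with WT medium (SD, n = 3 each) and did not pass. Tshz2, a teashirt factor, fell by 0.73 (adjusted p = 0.045, limma with Benjamini-Hochberg).

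Genes that set the chromatin state of Hox clusters were examined against the 20.7% called over all genes tested. Of 26 Polycomb genes, which keep Hox clusters silent, limma called 1 lower and 0 higher, with 9 at an unadjusted p under 0.05 and 2 called by limma voom. Over all 12341 genes tested, 3998 had an unadjusted p under 0.05 and limma voom called 2682. The lower gene was Phf19, which recruits the methyltransferase complex to marked chromatin, at 1.41, 2.25 and 1.59 FPKM with Alox5KO medium and 3.75, 3.61 and 3.21 FPKM with WT medium (adjusted p = 0.010, limma with Benjamini-Hochberg). The median log2 fold change of the Polycomb genes was 0.05. Of 13 trithorax genes and histone demethylases, limma called 0, with 1 at an unadjusted p under 0.05 and 1 called by limma voom. Their median log2 fold change was 0.07. Of 4 tested genes in a separate list of Hox partners, limma called 1 lower and 0 higher, or 25.0%, beside the 20.7%. Ctnnb1, Ctcf and Crebbp did not pass. The called gene was Gmnn, geminin, a replication inhibitor that also binds Hox proteins. Gmnn had 11.6, 12.8 and 11.7 FPKM with Alox5KO medium and 23.2, 21.7 and 19.2 FPKM with WT medium. It fell by 0.78 on the log2 scale (adjusted p = 9.0e-04, limma with Benjamini-Hochberg).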

How the data were processed

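Gene levels were measured by RNA-seq in 6 libraries, 3 for each medium. RNA was isolated with TRIzol and libraries were made with a NEBNext Ultra kit, per the labels' protocols. The authors deposited 1 table of FPKM values with a gene length for each row. Per the submitters' processing notes, which assign no roles, the tools were DESeq2 1.20.0, HISAT2 2.0.5, CASAVA 1.8, featureCounts 1.5.0-p3 and fastp, and mm10 (mouse) was the build; the table holds rat identifiers, and its rat build and the use of strand are not given in the sources used here. Coordinates are the table's own.

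Each value times its gene length was taken as a whole multiple of 1 step per library, which gave 13284088 to 15766187 reads per library. This held within 0.05 reads for 100% of the values checked. Values of the highest read numbers were not part of the check. The 12341 genes averaging 1 FPKM or more were tested as log2(FPKM + 1) with limma 3.58.1 in R 4.3.3 (trend and robust variance, two-sided), with Benjamini-Hochberg adjustment over all of them and a threshold of 0.05. Fold changes are Alox5KO medium minus WT medium and understate changes of low genes. The model was checked on simulated reads. Some genes counted among the 39 are not reported here; the others are named, and values per library are given for those that passed the test, the 10 most abundant and the Meox pair. Genes of the other lists are named where they passed, at most 6 per list by p. The members and gene lists were chosen with earlier results of these data known. Alternatives were a pseudocount of 0.1, no filter, a minimum of 5 FPKM, TPM scaling, quantile normalization, limma voom on recovered reads, a replicate block and leaving out each library.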

Additional observations from a re-analysis of the deposited data

How the results depend on the processing

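Of the 11 homeobox genes called, En1, Hlx, Meis1, Meox1, Meox2, Prrx1 and Prrx2 kept their call under all 13 alternatives, except where a minimum of 5 FPKM removed a gene from the test. Pknox1 and Tgif1 lost theirs in the settings named above, Pknox1 also with the replicate block, and none of the 11 changed sign. Hox cluster calls stayed at 0 in each alternative that tested them, and with the minimum of 5 FPKM no Hox gene was left to test. Outside the clusters, calls higher and lower numbered 4 and 7 with a pseudocount of 0.1 FPKM and with quantile normalization, 3 and 7 with no filter, 3 and 5 at 5 FPKM, 4 and 6 with TPM scaling, and 5 and 7 with limma voom. Leaving out 1 library gave 3 to 4 higher and 5 to 6 lower. Over all genes, calls numbered 1653 to 2551 with a library left out, the lowest without WT-medium replicate 1, and 2021 to 2682 in the other settings.

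With the replicate block 4 homeobox genes were called higher and 6 lower, and 2652 genes in all; Pknox1 lost its call (adjusted p = 0.057, limma with Benjamini-Hochberg). Deviations of libraries with the same number correlated at -0.0963, 0.105 and 0.167. Replicates 2 and 3 of each medium correlated best with their own number, and replicate 1 did not. The deviations are from means of only 3 libraries, so these correlations cannot show whether the numbers pair the samples. No label says that they do.

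Signs turned only among uncalled genes. Emx2 was at 0.0092 and Pbx2 at 0.0019 on the log2 scale with TPM scaling, and Hoxd8 at -0.080 with a pseudocount of 0.1 and -0.14 with limma voom. With a library left out, log2 fold changes ran from -0.18 to 0.025 for AABR07027925.2, -0.025 to 0.24 for Cers6, -0.071 to 0.00034 for Emx2, -0.043 to 0.092 for Homez, -0.21 to 0.38 for Hoxd8, -0.031 to 0.12 for Meis3, -0.069 to 0.16 for Pbx3, -0.10 to 0.18 for Shox2, -0.084 to 0.16 for Six4, -0.016 to 0.19 for Six5 and -0.16 to 0.020 for Tgif2. The cause was not tested. Read number limits the genes near 1 FPKM, of which Hoxd8 rests on 51 reads with Alox5KO medium and 41 with WT medium.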
